A study of Homo sapiens with 8 samples.

Results

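The regions described here were called for TEAD4 and stood high in the list of SB431542-treated cells. They had no overlapping TEAD4 region in the list of DMSO-treated cells. There were 2714 of them, out of 262109 TEAD4 regions in the SB431542 list and 972037 regions in the 3 region lists analysed. They are called SB431542-only regions below. They were chosen by 2 measured values, the row in the SB431542 list (rows 1 to 5000) and the absence of any overlap, by 1 bp or more, with a DMSO region, and by their position: chromosomes 1 to 22, and a distance of over 500 kb from any empty stretch, meaning 1 Mb or more without a region in any of the lists. The lists carry no score, and no header or label says what orders the rows, so a high place means an early row and not a measured strength. Their lack of a DMSO partner and their high place are therefore the choice itself and no finding.

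The cells were WA09, a long-established line of human embryonic stem cells, kept on Matrigel in medium conditioned by mouse feeder cells. For 4 h they received DMSO, the solvent, or SB431542 at 10 µM. Proteins were fixed to DNA with formaldehyde, the chromatin was sheared by sonication, and DNA bound by TEAD4 or SMAD2 was precipitated with antibodies and sequenced (ChIP-seq). The labels name 1 library per group, and the lists used are TEAD4 under SB431542, TEAD4 in DMSO and SMAD2 in DMSO, so that no value here has a replicate error and no p-value is given. Intervals are 95% Wilson intervals, which cover counting error and treat neighbouring regions as independent.

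TEAD4 belongs to the TEA domain family, transcription factors that sit on DNA and act mainly through YAP and TAZ, the coactivators held in check by the Hippo pathway. SMAD2 is the signal transducer of activin, Nodal and TGF-β: their receptors phosphorylate it, and it then enters the nucleus with SMAD4. SB431542 blocks the kinase of the type I receptors, and human embryonic stem cells in this kind of medium need that signal to stay undifferentiated. The comparison of the 2 TEAD4 lists asks where TEAD4 sat when this signal was blocked. With these lists, treatment and the making of the list cannot be told apart. All DMSO regions begin on a grid of 50 bp, while 1.81% of the SB431542-only regions do. Over all rows of the SB431542 list that met the same conditions on position the share was 1.98%, so this is a trait of the list.

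Of the first 5000 rows, 185 lay on chromosome X, 179 on chromosome Y and 5 on the mitochondrial genome. What the early rows on chromosome Y stand for was not tested. A further 688 autosomal rows lay beside an empty stretch, of which 555 had no DMSO partner. The 3943 rows left divided into 2714 SB431542-only regions (68.8%) and 1229 regions with a DMSO partner, the latter called regions of both treatments. Over all rows of the list that met the same conditions on position, 93.7% had no DMSO partner. That share was used by the rule and is given for scale.

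The SB431542-only regions were unevenly spread down the list. There were 106 in rows 1 to 500, 80 in rows 501 to 1000 and 138 in rows 1001 to 1500, against 75, 202 and 224 regions of both treatments. From row 1501 on they were the larger class in every block of 500 rows, with 246 against 154 in rows 1501 to 2000 and 410 against 45 in rows 4001 to 4500. Their share of the rows considered was thus 58.6% in the first block, 28.4% in the second and 78.0% in the last. Their share of the rows considered was therefore lower in rows 501 to 1500 than in the blocks on either side.

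**Figure D1:**
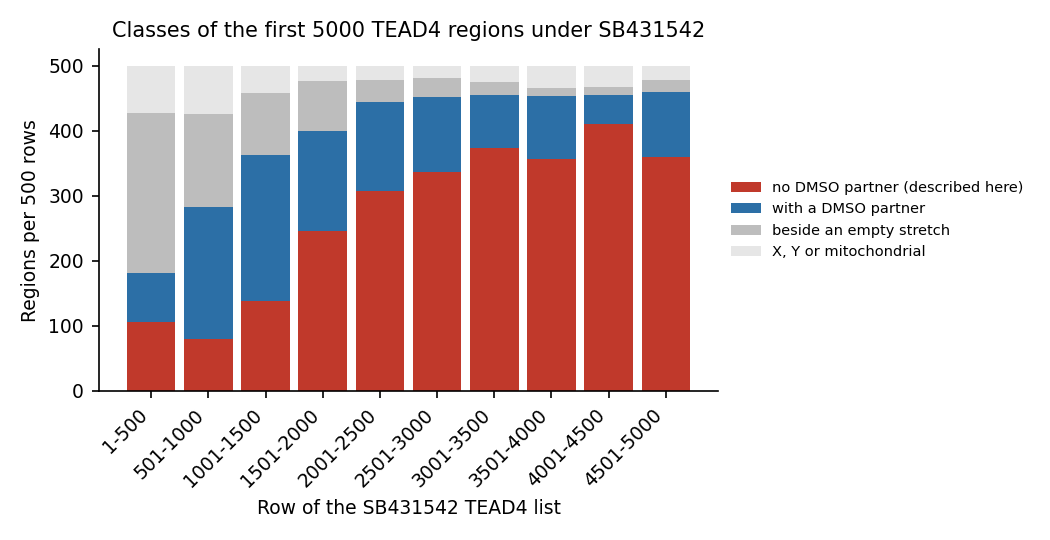
The first 5000 rows of the SB431542 TEAD4 list (x axis, blocks of 500 rows) divided into 4 classes, as the number of regions per block (y axis). SB431542-only regions fall from 106 to 80 in the first 2 blocks and reach 410 in rows 4001 to 4500.

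The first SB431542-only region was row 3, on chromosome 7 at 61968703 to 61969647, 945 bp wide. The nearest DMSO TEAD4 region was 10.9 kb away and the nearest SMAD2 region 21.6 kb away. Row 7 followed on chromosome 4 at 49151585 to 49151906. Row 14, on chromosome 18 at 107956 to 109868, had its nearest DMSO TEAD4 region 22.7 kb away. Rows 18, 21 and 28 lay within 4 kb of each other on chromosome 8, from 43092683 to 43096215. Row 20, on chromosome 4 at 68265055 to 68266844, was 1790 bp wide and had a DMSO TEAD4 region at 0.305 kb. Rows 24 and 50 lay beside row 3 on chromosome 7, and row 46 lay on chromosome 12 at 20704282 to 20704583. These first 10 regions thus fell at 6 places, and 8 of them had another SB431542 region within 0.2 kb.

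SB431542-only regions were narrower than regions of both treatments, with a median width of 219 bp (quartiles 198 and 248 bp) against 258 bp (222 and 303 bp). Both classes began at 198 bp, and 707 SB431542-only regions (26.1%) had that width, against 83 of the others (6.75%). The order was the other way round at the head: in rows 1 to 500 the SB431542-only regions had a median of 422.5 bp and the regions of both treatments 325 bp. From row 3501 on the medians of the 2 classes were close in each block of 500 rows. They were 223 and 221.5 bp, then 198 and 198 bp, then 234 and 233 bp. The 5 widest SB431542-only regions were row 1113 on chromosome 3 at 75696944 to 75699210 (2267 bp), row 14 (1913 bp), row 20 (1790 bp), row 119 (1762 bp, chromosome 2, 133027732 to 133029493) and row 584 on chromosome 9 at 68418324 to 68420050 (1727 bp). Regions over 500 bp numbered 65, and 52 of them lay in the dense groups described further on.

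Width and row are tied to each other in this list, which bears on what the row of an SB431542-only region means. The 262109 rows fell into 805 runs in which the width never rose from one row to the next, 326 rows per run on average, and the longest run held 88436 rows. The DMSO TEAD4 list had 97784 such runs, 2.96 rows each. Among neighbouring rows of equal width in the SB431542 list, 252442 of 252465 pairs stood in reverse text order of chromosome name and then of start. Within a run, then, rows were ordered by width and then by position. Rows 1 to 500 touched 202 runs and rows 4001 to 5000 touched 22.

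The runs made up larger teeth. Past row 2000, the width rose by over 200 bp from one row to the next at 4 places, rows 2283, 2765, 3466 and 4509, each time from 198 bp to between 598 and 738 bp. At row 2283, 5 of the 85 rows considered among the 100 rows before it were regions of both treatments (5.88%), and 44 of the 85 from it on (51.8%). At row 2765 the share went from 9.52% to 44.7%, at row 3466 from 9.28% to 44.0% and at row 4509 from 12.2% to 28.6%. The SB431542-only regions therefore gathered at the narrow end of each tooth, and the share with a DMSO partner did not fall steadily with the row. These places were picked after the values were seen. The longest run among these rows, rows 4059 to 4508, went from 257 to 198 bp and held 363 SB431542-only regions and 43 of both treatments.

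**Figure D2:**
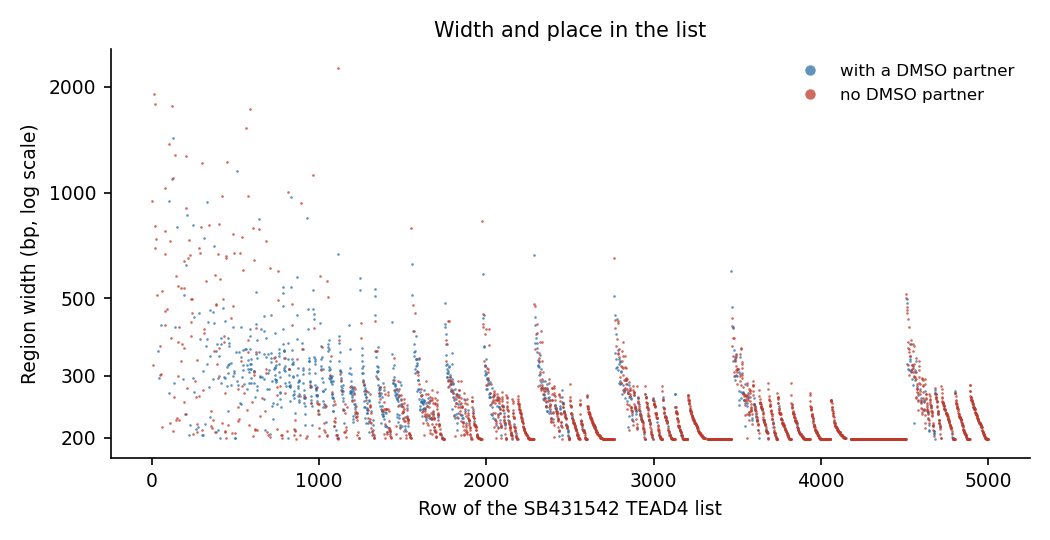
Width of each region (y axis, bp, log scale) against its row in the SB431542 TEAD4 list (x axis) for SB431542-only regions (red) and regions of both treatments (blue). The widths fall in runs down to 198 bp, jump at rows 2283, 2765, 3466 and 4509, and the regions with a DMSO partner lie mainly at the upper left of each tooth.

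The limit at row 5000 cut through such a run, which went from row 4891 to row 5027. Row 5000 shared its run and its width of 198 bp with 38 further rows, and of these 39 rows 12 lay inside the limit and 27 outside. The last regions inside were rows 4998 (chromosome 4, 110030205 to 110030402), 4999 (chromosome 3, 150452483 to 150452680) and 5000 (chromosome 3, 63974565 to 63974762). The first outside were rows 5004, 5005 and 5006, all on chromosome 2, of 198 bp each. The rows on either side thus differed in chromosome name and not in width.

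The limit of 500 kb from an empty stretch passed beside the largest group. The 3 regions nearest to it on the inside, rows 1240, 1471 and 482, lay 501.7, 502.4 and 502.9 kb from the stretch on chromosome 4. On the outside were row 570 on chromosome 7 (488.2 kb) and rows 1175 and 1049 on chromosome 21 (487.3 and 485.5 kb).

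Most SB431542-only regions stood alone. Regions were put in a group when each lay within 50 kb of the one before, and 2186 had no other within that distance, while 528 (19.5%, 18.0 to 21.0%) did. The share was 17.7% (15.7 to 20.0%) among the fewer regions of both treatments. There were 121 pairs and 15 groups of 3, and the other 241 regions lay in 20 groups of 4 or more. Regions of both treatments also formed groups: 67 pairs, 8 groups of 3 and 8 groups of 4 or more. The last held 60 of the 1229 regions, with 14 in the largest, against 36 in the largest group of SB431542-only regions.

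The 20 groups held much of the head of the list. Their 241 regions had a median row of 852 and a median width of 302 bp, compared with row 3307 and 216 bp for the other 2473. They supplied 75 of the 106 SB431542-only regions in rows 1 to 500 and 129 of the 186 in rows 1 to 1000. The groups spanned 1043 kb in all and held 792 SB431542 TEAD4 regions of any row, 135 DMSO TEAD4 regions and 85 SMAD2 regions. The groups were made of SB431542 regions chosen for having no DMSO partner. The choice therefore favours the order of the first 2 counts without fixing it, and that order is no finding.

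The largest group lay on chromosome 4 from 49093199 to 49158346, with 36 SB431542-only regions. In its 65.1 kb there were 79 SB431542 regions, 11 DMSO TEAD4 regions and 1 SMAD2 region. The next lay on chromosome 16 from 33865996 to 33975971, with 35, and held 106, 14 and 10 regions of the 3 lists. The third, with 26, lay on chromosome 2 from 132986972 to 133039190 and held 50 SB431542 regions, 6 DMSO TEAD4 regions and no SMAD2 region. This group was 37.7 Mb from the nearest empty stretch, whereas those on chromosomes 4 and 16 were 0.502 and 1.31 Mb from one. The choice likewise favours SB431542 regions over DMSO TEAD4 regions in these 3 spans, so that order is no finding. SMAD2 regions were the fewest in these 3 spans but not in every group. The group on chromosome 3 described below held 8 SMAD2 and 2 DMSO TEAD4 regions.

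**Figure D3:**
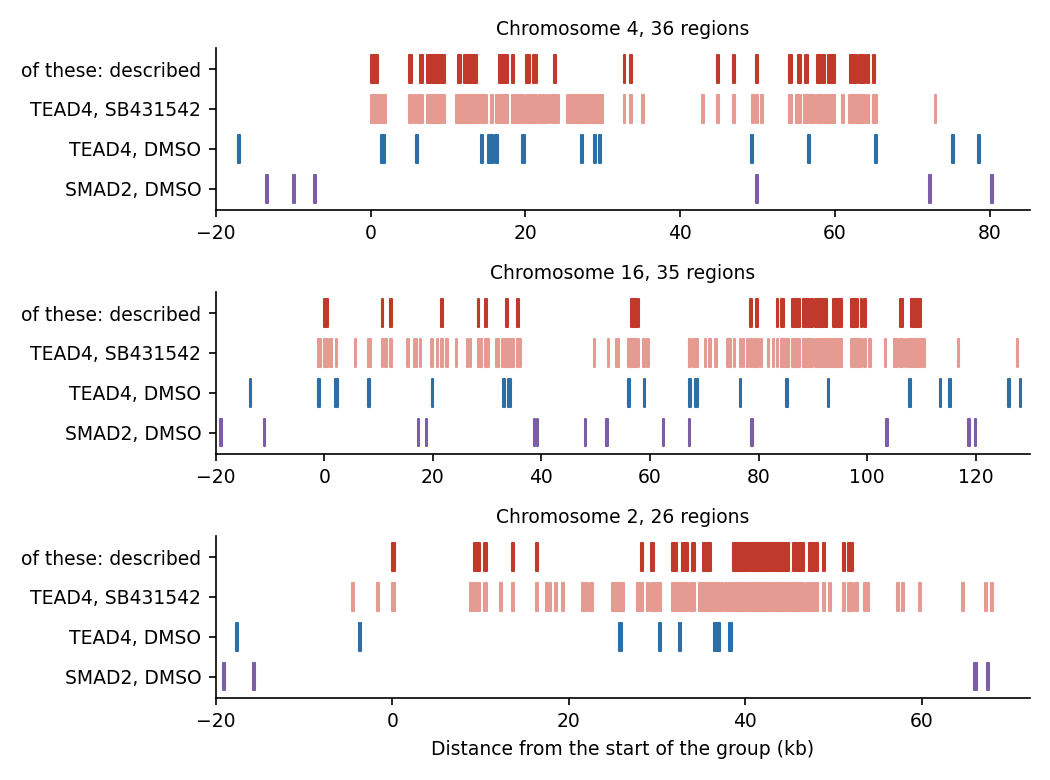
The 3 largest groups of SB431542-only regions, with all regions of the 3 lists along the distance from the group's start (x axis, kb). Regions under 250 bp are drawn 250 bp wide. The dense SB431542 track (79, 106 and 50 regions) stands over 11, 14 and 6 DMSO TEAD4 regions and 1, 10 and 0 SMAD2 regions.

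Not all groups lay near empty stretches, though a chromosome end was not in itself counted as one. Of the 20, 10 were within 5 Mb of one and 5, with 93 regions, were within 1 Mb. Of the regions in groups 68.5% lay within 5 Mb of an empty stretch, against 6.91% of the other SB431542-only regions. The following groups, all over 10 Mb from such a stretch, are named after their values were seen. On chromosome 17, 9 regions lay between 45212833 and 45266704, 19.9 Mb from an empty stretch, in rows 156 to 927. That span held 15 SB431542 regions, 5 DMSO TEAD4 regions and no SMAD2 region.

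On chromosome 3, 5 regions lay between 30686179 and 30733146, all in rows 572 to 1067 and 59.8 Mb from an empty stretch. They were at 30686179 to 30686480 (302 bp), 30712989 to 30713965 (977 bp), 30715533 to 30715811 (279 bp), 30729807 to 30730066 (260 bp) and 30732840 to 30733146 (307 bp). This span held 9 SB431542 regions, 2 DMSO TEAD4 regions and 8 SMAD2 regions, and none of the 5 overlapped SMAD2. On chromosome 18, 5 regions between 106745 and 111716, close to the start of the chromosome, took up 4305 bp of 4.97 kb. That span held no region of the DMSO TEAD4 or SMAD2 list. Whether the regions of these 3 groups fall on annotated features such as exons, and whether they reflect TEAD4 on chromatin or DNA from another source, was not tested, since no hg19 annotation was used here.

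The SMAD2 list was not used to choose the regions, other than through the empty stretches. It does come from DMSO cells, as does the TEAD4 list whose overlap split the 2 classes. The comparison of the 2 classes is therefore not independent of the choice. Whether the shared treatment bears on the difference was not tested. SMAD2 regions of DMSO cells overlapped 165 SB431542-only regions (6.08%, 5.24 to 7.04%). Over all rows of the SB431542 list that met the conditions on position the share was 5.55%, so the SB431542-only regions lay near this background. Regions of both treatments in the same rows overlapped SMAD2 in 114 of 1229 cases (9.28%, 7.78 to 11.0%). The difference was -3.20 percentage points, with an interval (Newcombe, counting error only) of -5.14 to -1.42. Regions without a DMSO partner past row 5000 overlapped SMAD2 in 5.38% of cases, 0.70 points below the SB431542-only regions, with an interval of the difference (-0.14 to 1.67) that includes 0. The SB431542-only regions were wider than both backgrounds. Their median was 219 bp, against 145 bp over all rows and 144 bp for regions without a DMSO partner past row 5000. A wider region has more room to overlap, and these 2 comparisons were not matched for width.

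The overlap of SB431542-only regions with SMAD2 was lowest at the head. Of the 186 SB431542-only regions in rows 1 to 1000, 2 overlapped SMAD2 (1.08%, 0.295 to 3.84%), against 19 of 277 regions of both treatments (6.86%, 4.43 to 10.5%). In rows 1001 to 2000 the shares were 5.47% and 9.52%, and in rows 2001 to 3000 they were 5.28% and 11.9%. In these 3 blocks the interval of the difference lay below 0. In rows 3001 to 4000 the shares were 7.11% and 7.95%, a difference of -0.84 points (-6.06 to 2.95), and in rows 4001 to 5000 they were 7.28% and 10.3%, a difference of -2.99 points (-9.20 to 1.46). In the lower 2 blocks the difference was not detectable at these numbers. This reading depends on the block size. In blocks of 500 rows the difference was 3.38 points (-3.09 to 6.77) in rows 3001 to 3500. It was 0.31 points (-6.75 to 5.05) in rows 4501 to 5000 and negative in every other block. Its interval lay below 0 only in rows 2501 to 3000 (-9.17 points, -16.9 to -3.28) and rows 4001 to 4500 (-10.5 points, -24.2 to -1.48).

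**Figure D4:**
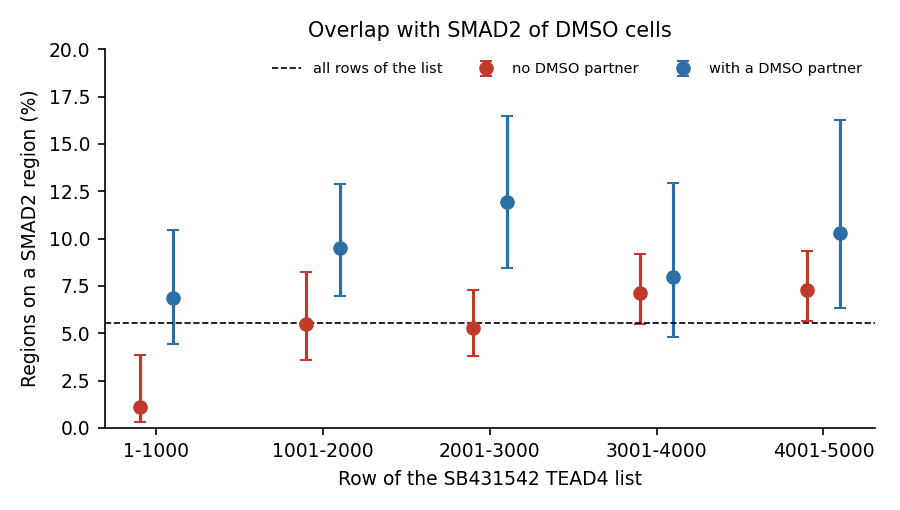
Share of regions that overlap a SMAD2 region of DMSO cells (y axis, percent, with 95% Wilson intervals) by block of 1000 rows (x axis), for SB431542-only regions (red) and regions of both treatments (blue). The red share starts at 1.08% and ends at 7.28%, and the dashed line marks the 5.55% of all rows.

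The dense groups contributed few SMAD2 overlaps, 6 of 241 (2.49%, 1.15 to 5.32%), while 159 of the other 2473 SB431542-only regions overlapped SMAD2 (6.43%, 5.53 to 7.47%). SMAD2 regions were also farther from the groups: the median distance was 8.36 kb for regions in groups and 2.04 kb for the others. DMSO TEAD4 regions were not farther, with medians of 2.09 and 3.67 kb. Without groups of 4 or more in either class, the difference from regions of both treatments was -3.24 points (-5.28 to -1.36). It was -3.11 points (-5.10 to -1.13) when regions were compared within strata of width. The gap was uneven across the strata. At 198 bp the shares were 5.94% of SB431542-only regions and 14.5% of the 83 regions of both treatments. At 199 to 219 bp they were 6.39% and 6.86%, and at 300 to 399 bp 9.16% and 9.58%. Wider gaps than in these were seen at 220 to 249 bp (6.003% and 9.58%) and 250 to 299 bp (6.13% and 9.34%). At 400 bp and over the shares were 1.79% and 7.79%. The share of SB431542-only regions was thus the lower one in every stratum.

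Where SMAD2 and an SB431542-only region met, the overlap with SMAD2 had a median of 99 bp (quartiles 51 and 149 bp), and the midpoints were a median of 93.5 bp apart. In 36 of the 165 cases the SMAD2 region lay wholly inside the TEAD4 region, and 4 of the SMAD2 partners also overlapped a DMSO TEAD4 region. The partners were spread over the SMAD2 list, with a median row of 169043, and 5 stood in its first 5000 rows. Those in its first 10% made up 16.4%, against 14.9% for the partners of regions of both treatments. For the partners of all SB431542 regions that share was 14.1%, and their median row was 177996.

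Of the first 10 SB431542-only regions on SMAD2, 2 lay in dense groups. Row 201 lay on chromosome 2 at 89866676 to 89867578 and held the SMAD2 region at 89867101 to 89867199 (row 360095 of the SMAD2 list). Row 692 lay on chromosome 4 at 49143011 to 49143213, in the largest group. The next were row 1035 (chromosome 1, 146571678 to 146571925) and row 1389 (chromosome 5, 112144105 to 112144357). Both stood alone, with DMSO TEAD4 regions at 9.88 and 2.26 kb. Rows 1415, 1476, 1488, 1523, 1544 and 1584, on chromosomes 1, 2, 14, 20, 3 and 7, also stood alone. The SMAD2 row nearest to the head among these 10 was 106918, on chromosome 20 at 42930901 to 42931049, partly on the TEAD4 region of row 1523 at 42930667 to 42930914.

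The place of SMAD2 around these regions was also read without any overlap rule, as the share of midpoints covered by a SMAD2 region. It was 2.84% (77 of 2714, 2.28 to 3.53%) at the midpoint of SB431542-only regions and 2.23% on average at points 2 to 5 kb away, a ratio of 1.27 (1.02 to 1.59, from the interval of the first share alone). For regions of both treatments the values were 3.82% and 2.27%, a ratio of 1.69 (1.27 to 2.23). Past row 5000, regions without a DMSO partner had 2.88% and 2.47%, a ratio of 1.17 (1.14 to 1.20). SMAD2 thus stood above its surroundings at the SB431542-only regions by a small margin, and the intervals of the ratios in the 2 classes of the first 5000 rows overlapped. Single points 2 to 5 kb from SB431542-only regions reached from 1.58% to 2.91%, so the value at the midpoint was within the range of single points.

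**Figure D5:**
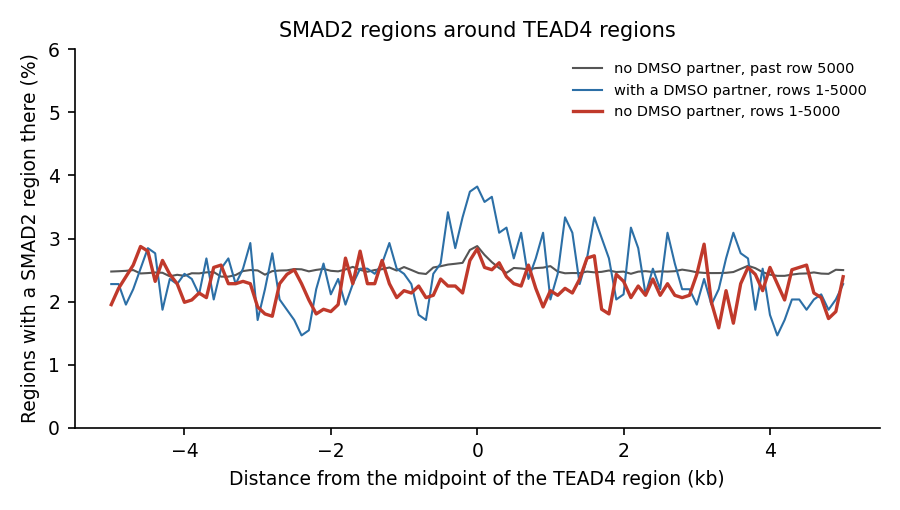
Share of TEAD4 regions with a SMAD2 region of DMSO cells at each point (y axis, percent) from 5 kb before to 5 kb after the midpoint (x axis, steps of 100 bp). Values at the midpoint are 2.84% for SB431542-only regions (red), 3.82% for regions of both treatments (blue) and 2.88% for regions without a DMSO partner past row 5000 (grey).

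DMSO TEAD4 regions lay near some SB431542-only regions without touching them. By the rule none overlapped, but 80 (2.95%) had one within 100 bp and 592 (21.8%) within 1 kb. The shares past row 5000 were 2.41% and 19.2% for regions without a partner. The neighbours of those 592 had a median row of 111230 of the 289380 rows of the DMSO list, and 19 were in its first 5000 rows. The overlapping DMSO partners of regions of both treatments had a median row of 7153, and 580 of 1229 (47.2%) stood in the first 5000. The median distance from an SB431542-only region to the nearest DMSO TEAD4 region was 3.41 kb and the largest 154.8 kb. Neither a DMSO TEAD4 nor a SMAD2 region lay within 10 kb of 43 regions (1.58%). That share was 0.914% for regions without a DMSO partner past row 5000 and 0.863% over all rows considered. The rule itself removed regions that overlap a DMSO region.

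SB431542-only regions were found on all 22 chromosomes examined, from 30 on chromosome 21 to 264 on chromosome 2. Their share of the rows considered was lowest on chromosome 19 (58.0%, 47.2 to 68.2%) and highest on chromosome 20 (73.8%, 63.2 to 82.1%), and these intervals overlap. Set against all rows of the SB431542 list that met the conditions on position, chromosome 16 held 1.20-fold its share, chromosome 7 1.19-fold and chromosome 4 1.18-fold. Without regions in groups of 4 or more these values were 0.86, 1.12 and 1.01, while chromosome 22 then stood highest at 1.27. The value above 1 on chromosome 16 thus rested on the dense groups, and the value on chromosome 4 was close to 1 without them. Leaving the groups out also raises the share of chromosomes that hold none, such as chromosome 5, from 0.83 to 0.91. Each of the 22 chromosomes held SB431542-only regions on SMAD2, from 1 of 94 regions on chromosome 17 to 19 of 249 on chromosome 1.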

How the data were processed

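The authors deposited 3 lists of called regions, giving only chromosome, start and end (bp), without header, score or read count. Coordinates are on hg19 per the submitters' processing notes. How reads were aligned and regions called, at which threshold, depth and against which control, is not given in the sources used here, and no occupancy was computed. Lists were tied to samples by antibody target and treatment in their names. SMAD2 under SB431542, input and IgG were not analysed here. Starts are printed raised by 1 bp and widths are end minus start.

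The regions, groups and comparisons were chosen with earlier results of these data known. Runs of width, groups of 4 or more and the large rises of width were defined after seeing the data. Named regions are the first 10, the 3 on either side of each limit, the first 10 on SMAD2, the 5 widest and the 3 largest groups; others are marked as picked afterwards. Strata of width began at 198, 199, 220, 250, 300 and 400 bp, and strata were combined with Mantel-Haenszel weights. The interval functions were checked on planted regions and against bedtools. Genes, promoters, motifs and sequences need hg19 and were not analysed here, since the gene and promoter tables used here are on GRCh38. Python 3.11.15, NumPy 2.4.6 and pandas 2.3.3 were used.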

Additional observations from a re-analysis of the deposited data

How the results depend on the processing

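The number of SB431542-only regions stayed within 1.5 times of 2714 in all 9 alternatives, from 2122 when a gap of up to 1 kb counted as shared to 3269 when regions beside empty stretches were kept. The share on SMAD2 (6.08%) was 2.03% with an overlap of 50% of both regions, 3.32% with midpoints within 100 bp, 1.08 and 4.68% in the first 1000 and 2500 rows, and 3.50% with the first 50% of the SMAD2 rows. The 2 stricter rules and the shorter SMAD2 list lower a share by construction, and the cause of the others was not tested. The other 6 alternatives stayed within the interval. The difference in SMAD2 overlap from regions of both treatments kept its sign in all 6 alternatives, with its interval below 0 in 5. With 50% of both regions it was -0.74 points (-1.91 to 0.25). The share with another within 50 kb (19.5%) was 12.6% within 10 kb, 40.3% within 200 kb, 16.2% at 1 Mb from an empty stretch and 16.8% without the first 500 rows. Cuts at the ends of a run and settings without dense groups or without the first 500 rows were chosen after seeing the data. No motif alternative was run, and no library could be left out. No paired analysis was possible because there was only 1 library per group. Depth and calling threshold are unknown, so absence from a list is a missing call and not a measured absence of binding.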
